A study of Mus musculus with 8 samples.

Results

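Deep cervical lymph nodes of glioma-bearing mice that received isotype IgG were compared, cell by cell, with those of mice injected with saline. A barcode was a member if 500 or more genes were detected in it and no more than 10% of its unique molecular identifiers (UMIs, tags that count RNA molecules) came from mitochondrial genes. These were 9802 barcodes of the saline library and 9586 of the glioma isotype library, 19388 of the 49060 such barcodes in the 5 expression libraries of the series. The saline group was wild-type C57BL/6 mice with DPBS, a buffered saline, given both as the injection in place of tumor cells and as the treatment. The glioma isotype group was wild-type C57BL/6 mice with intracranial GL261 cells, a mouse glioma line of the same strain, treated with isotype IgG, an antibody without a target that serves as control. In both groups the nodes were taken at day 20, live immune cells were sorted by flow cytometry, and RNA was captured with a droplet 5' kit. The other 3 libraries came from GL261-bearing mice that received anti-CTLA-4, or anti-CD20 (which depletes B cells) with isotype IgG or with anti-CTLA-4. Their values stand beside the comparison where they help to read it. How many mice were pooled in a library, and whether saline mice received an antibody, is not given in the sources used here.

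Each group was 1 library, so there was no replicate check and no test. Levels are in CPM, the UMIs of a gene scaled by all UMIs of a cell class, a ratio is the glioma isotype level over the saline level, and brackets hold 95% intervals that cover counting error only. A gene was called higher or lower when its ratio passed 1.5-fold with at least 100 UMIs over both libraries. A difference between the conditions and a difference between 2 single preparations cannot be told apart.

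Deep cervical nodes drain the brain and its meninges, and in a resting node most cells are naive follicular B cells and naive T cells. Antigen reaches them with migratory dendritic cells, which enter from tissue and express Ccr7, or through lymph. Cytokine receptors signal through JAK kinases and STAT factors, which switch on their own inhibitors such as Socs3. Chaperones refold damaged proteins and are switched on by heat shock factor, while Cirbp and Rbm3 encode RNA-binding proteins known for rising with mild cooling.

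The libraries were alike in depth and differed in mitochondrial RNA. Totals were 54715065 UMIs in the saline library and 55770528 in the glioma isotype library, and members had medians of 4776.5 and 4688.5 UMIs. The median share of mitochondrial UMIs per member was 1.77% with saline and 1.01% in the glioma isotype library, against 2.07% to 2.09% in the other 3. Barcodes shared between the libraries numbered 163, or 1.66% of the saline members. After removal of 769 and 735 barcodes scored as doublets, 9033 saline and 8851 glioma isotype cells were kept and placed in 15 classes by clustering and markers.

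The promoters of 3 genes that stand for the main gene-level patterns are printed. Genes of those patterns lay together in B and T cells or apart in 1 of the 3 large classes. They are the 250 bases before a RefSeq start site on GRCm38.p6, all on the minus strand. The Socs3 start used (117969366) belongs to 1 transcript and lies inside the annotated span of the gene, so another start may lie further upstream. Within these windows capitals mark 1 match each to a spaced palindrome. In Socs3, the feedback inhibitor of JAK and STAT signalling, the capitals mark TTCNNNGAA, the form bound by STAT factors. In Fkbp4 (a co-chaperone of Hsp90, with ratios of 0.685 to 0.765 in follicular B-like, conventional CD4 T and CD8 T-like cells, short of the 1.5-fold call) and Hspa1b (an inducible Hsp70 chaperone, higher in follicular B-like cells alone among the 3 large classes), they mark GAANNTTC, a pair of heat shock element units.
Socs3, chr11:117969367-117969616: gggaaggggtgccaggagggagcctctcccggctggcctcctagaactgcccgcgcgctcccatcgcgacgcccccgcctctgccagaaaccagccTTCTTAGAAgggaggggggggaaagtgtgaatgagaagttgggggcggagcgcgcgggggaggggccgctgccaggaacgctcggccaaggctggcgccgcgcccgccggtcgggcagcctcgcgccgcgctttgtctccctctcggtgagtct
Fkbp4, chr6:128438657-128438906: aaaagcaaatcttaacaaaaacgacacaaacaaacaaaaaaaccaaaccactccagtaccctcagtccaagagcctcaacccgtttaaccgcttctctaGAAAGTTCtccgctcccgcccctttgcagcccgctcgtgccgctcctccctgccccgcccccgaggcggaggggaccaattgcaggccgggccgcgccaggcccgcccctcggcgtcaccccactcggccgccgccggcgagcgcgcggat
Hspa1b, chr17:34959239-34959488: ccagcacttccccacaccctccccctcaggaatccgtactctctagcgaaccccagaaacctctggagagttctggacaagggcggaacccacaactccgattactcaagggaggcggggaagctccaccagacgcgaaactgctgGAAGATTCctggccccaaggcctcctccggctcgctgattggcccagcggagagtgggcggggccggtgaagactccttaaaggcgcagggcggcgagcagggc
The matches began 154, 151 and 104 bases before the start. Over windows of 300 bases, 250 before and 50 after the start and read on both strands, TTCNNNGAA stood in 3 of the 5 genes with a window among the 6 that were at least 1.25-fold higher in B and T cells (Pde1c, Sbno2 and Socs3), and in 9.55% of all genes. It also stood in 2 of 13 such lower genes (Pde4b and Tgif1). GAANNTTC stood in 2 of the same 5 higher genes (Pde1c and Sbno2) and in 4 of 13 lower genes (Chordc1, Dnaja1, Fkbp4 and Tmem33). Among 6 named genes higher in follicular B-like cells alone of the 3 large classes it stood in 3 (Hspa1a, Hspa1b and Jun). Over all genes it stood in 9.04%. The forms overlap in letters, and a match describes the sequence only.

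The large classes kept nearly the same shares of the node. Follicular B-like cells were 42.8% of kept saline cells (3864 cells) and 44.1% of glioma isotype cells (3903 cells), a ratio of 1.03 (0.997 to 1.07). Conventional CD4 T cells were 18.4% (1661 cells) and 17.1% (1513 cells), a ratio of 0.930 (0.873 to 0.990). CD8 T-like cells were 21.5% (1941 cells) and 20.0% (1772 cells), a ratio of 0.932 (0.880 to 0.987). Mixed T cells had a ratio of 0.829 (0.713 to 0.963). B lineage cells together had a ratio of 1.05 (1.02 to 1.08) and T lineage cells of 0.935 (0.907 to 0.965). The T cell and lineage intervals given here left out 1, by counting error only. Antigen-driven B classes were small and larger in the glioma isotype library: germinal centre B-like cells numbered 23 and 77, and plasma cell-like cells 7 and 43.

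Among rarer lineages outside B cells, plasmacytoid dendritic-like and cycling T cells were the classes whose intervals lay above 1 at the main settings. Plasmacytoid dendritic-like cells, the type known for interferon output, were 15 of the saline cells (0.166%) and 34 of the glioma isotype cells (0.384%), a ratio of 2.31 (1.26 to 4.24). Every cell of that class held Siglech, its receptor marker, in both libraries. A UMI of Cd3e or Cd79a, markers of T and B cells, was in 1 of the 15 saline cells and in 14 of the 34 glioma isotype cells. Without those cells the counts were 14 and 20, a ratio of 1.46, and without removal of doublets they were 27 and 34, a ratio of 1.29 (0.778 to 2.13). The marker gate gave a ratio of 1.82 (0.948 to 3.50). Without the cells with Cd3e or Cd79a, with doublets kept in or by the gate, the interval held 1.

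Cycling T cells were 22 with saline (0.244%) and 39 in the glioma isotype library (0.441%), a ratio of 1.81 (1.07 to 3.05). Within them Cd4 was found in 10 of 22 saline cells and 25 of 39 glioma isotype cells, Foxp3 (the regulatory T cell factor) in 4 and 11, and Cd8b1 in 13 and 12. With doublets kept in, they were 38 and 45 cells, a ratio of 1.21 (0.787 to 1.86), an interval that held 1.

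NK-like, innate lymphoid-like, gamma-delta T-like, migratory dendritic-like and myeloid shares had intervals that held 1. NK-like cells were 51 and 55, a ratio of 1.10 (0.753 to 1.61). Ncr1, an activating receptor that defines NK cells, had a UMI in 47 of 51 and 51 of 55 of them, against 0% of follicular B-like cells and 0.309% and 0.169% of CD8 T-like cells, at median depths of 6094 and 5894 UMIs in NK-like, 3787 and 3685 in follicular B-like and 6566 and 6514 in CD8 T-like cells. Innate lymphoid-like cells were 43 and 48, migratory dendritic-like cells 28 and 33, and myeloid cells 26 and 34. With doublets kept in, the migratory dendritic-like ratio of 1.203 was 0.790, and without cells with a Cd3e or Cd79a UMI it was 0.942, both on the other side of 1.

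The gamma-delta T-like class was 31 and 25 cells, a ratio of 0.823, and its label is only partly carried by its markers. Trdc, the delta receptor constant gene, had a UMI in 11 of 31 and 6 of 25 cells, while Trbc2, of the beta receptor, had one in 24 and 23. It is best described by the genes that lead it in these cells, which include Zbtb16 and Il23r of innate-like T cells. A direct count of cells with UMIs of Trdc, of a gamma constant gene and of Cd3 gave 36 (0.399%) and 32 (0.362%), of which 21 and 17 sat in the CD8 T-like class.

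Monocytes were rare in these sorted nodes. A monocyte gate took cells with Lyz2, at least 3 of Ly6c2, Ccr2, Csf1r, Vcan, F13a1 and Ms4a4c, and no Cd3 or Cd79 UMI. It found 0 of the saline cells, which allows a share of up to 0.0408% (exact 95% bound), and 5 glioma isotype cells (0.0565%), while the other glioma libraries held 3, 8 and 5. Cells of classes that are neither B nor T were also clustered again together. A sub-cluster of these led by Dcn, Cyp7b1, Serping1 and Apod, of which Dcn is a matrix gene of stromal cells, held 0 and 7 cells. It scored highest on the marker list of conventional dendritic cells of type 2 (5.17). Its 10 leading genes also held the lectin genes Mgl2, Cd209d and Cd209e. A neutrophil sub-cluster led by S100a8 and S100a9 held 1 and 5. Conventional dendritic cells of the Xcr1 type numbered 8 and 7, and a sub-cluster led by Il1r2 and Ptgs2 12 and 16.

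**Figure D1:**
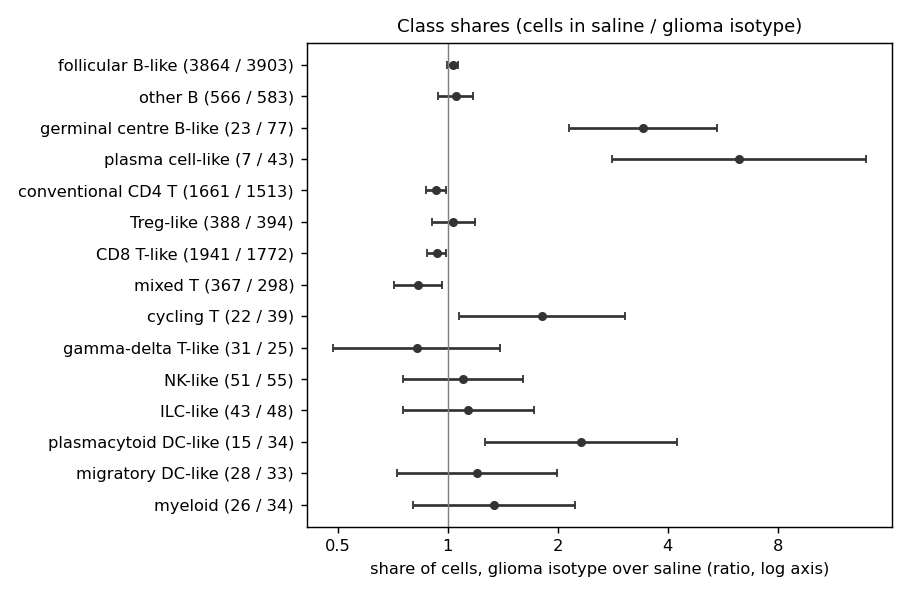
Ratio of each class's share of kept cells, glioma isotype over saline (log axis), with 95% intervals that cover counting error only and the cell counts beside each name. Large B and T classes lie near 1, while the germinal centre (77 against 23 cells), plasma, plasmacytoid dendritic and cycling T classes lie above it.

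Few genes moved alike in B and T cells, and those that did were led by genes of the mitochondrial genome. Of 8205 genes with at least 100 UMIs in follicular B-like, conventional CD4 T and CD8 T-like cells, 4 (0.0488%) were higher and 14 (0.171%) lower in all 3 classes. The 14 lower genes were 12 of the 13 mitochondrially encoded messages, an unnamed gene model, and Stip1. The 4 higher genes were Cirbp, Socs3, Slc15a2 and the immunoglobulin segment Ighv1-22.

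Mitochondrially encoded RNA, as UMIs summed per class, was lower in every class of the glioma isotype library. These 13 messages encode core subunits of the respiratory chain and ATP synthase. Their share of follicular B-like UMIs was 1.93% with saline and 1.09% in the glioma isotype library (2.29% with anti-CTLA-4), a ratio of 0.565. In conventional CD4 T cells it was 1.71% and 1.00% (2.00% with anti-CTLA-4), and in CD8 T-like cells 1.77% and 0.991% (2.08%). NK-like cells had 1.30% and 0.837%, gamma-delta T-like cells 1.73% and 0.971%, and plasmacytoid dendritic-like cells 2.15% and 1.44%. Migratory dendritic-like cells (0.806% and 0.685%) and plasma cell-like cells (0.672% and 0.575%) had the smallest differences. By these sums the glioma isotype library was the lowest of all 5 in each of the 15 classes. The median per plasma cell-like cell was 0.592% with saline (7 cells) and 0.602% in the glioma isotype library (43 cells), so saline was lower there.

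The 13 messages differed in size of ratio. The median log2 ratio was -0.84 in follicular B-like cells, -0.84 in conventional CD4 T cells and -0.85 in CD8 T-like cells, against medians over all genes of -0.038, -0.038 and -0.046. In follicular B-like cells mt-Co1, a catalytic subunit of complex IV, was at 4149 and 2323 CPM (ratio 0.560) and mt-Nd2, of complex I, at 929.9 and 435.4 CPM (0.468). The largest difference was in mt-Nd6, the message of the light strand, with ratios of 0.408, 0.432 and 0.414 in follicular B-like, conventional CD4 T and CD8 T-like cells. The smallest was in mt-Cytb, of complex III, with ratios of 0.685, 0.701 and 0.729. None of the 22 nuclear respiratory chain genes tested was called in any of those classes, with median log2 ratios of -0.0032, 0.043 and 0.011. None of the 81 cytosolic ribosomal protein genes was called either. Over all genes tested, 0.967% were higher and 1.33% lower in follicular B-like cells. The shares were 1.08% and 1.04% in conventional CD4 T cells and 0.615% and 0.863% in CD8 T-like cells. A short list with no call is near these shares.

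**Figure D2:**
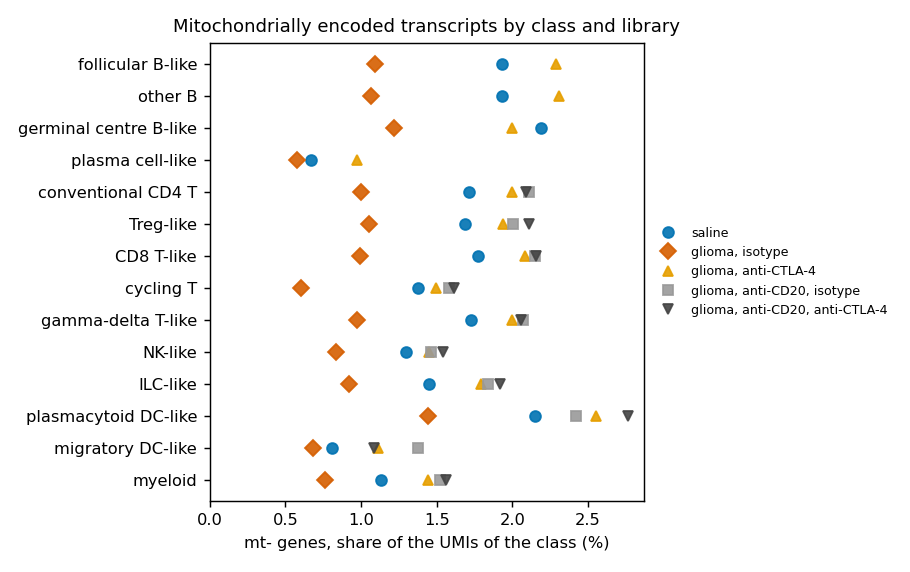
Mitochondrially encoded UMIs as percent of all UMIs, summed per class, with 1 point for each library (anti-CD20 libraries are left out of B classes, where they hold few cells). The glioma isotype library is the lowest in each class, at 1.09% against 1.93% with saline in follicular B-like cells.

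Cirbp, of the cooling-responsive RNA-binding proteins, was higher in all 3 large classes of the glioma isotype library, and Rbm3 in follicular B-like cells. Cirbp (chromosome 10, 80165990 to 80172786 on GRCm38.p6) was at 100.003 CPM with saline and 186.0 CPM in the glioma isotype library in follicular B-like cells, a ratio of 1.86 (1.75 to 1.98). In conventional CD4 T cells it was at 78.6 and 122 CPM, a ratio of 1.56, and in CD8 T-like cells at 63.4 and 109 CPM, a ratio of 1.72. The other 3 libraries, all from glioma-bearing mice, lay near the glioma isotype library, with 127, 125 and 158 CPM in conventional CD4 T cells. Rbm3 (chromosome X, 8138975 to 8145880) was at 480.2 and 752.7 CPM in follicular B-like cells, a ratio of 1.57, and had ratios of 1.40 in conventional CD4 T and in CD8 T-like cells, short of the call. It was higher in regulatory T-like cells as well, at 629.8 and 969.7 CPM. The other 6 members of the temperature list were not called in the 3 large classes, where 0.615% to 1.33% of all genes were called in each direction.

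Among Hsp90 co-chaperones, Stip1 was lower in the same cells. Stip1, which hands clients from Hsp70 to Hsp90 (chromosome 19, 7020696 to 7040026), was at 154 CPM with saline and 98.0 CPM in the glioma isotype library in follicular B-like cells, a ratio of 0.634 (0.594 to 0.678). It was at 134 and 83.6 CPM in conventional CD4 T cells and at 128 and 83.5 CPM in CD8 T-like cells, with 69.6 to 85.5 CPM and 68.2 to 83.2 CPM in the other 3 libraries. Saline was the highest of the 5 libraries in both T classes. The Hsp90 partner Chordc1 had ratios of 0.685, 0.710 and 0.645 in follicular B-like, conventional CD4 T and CD8 T-like cells. The Hsp70 partner Dnaja1 had 0.734, 0.708 and 0.693. For Fkbp4, whose promoter is printed above, they were 0.685, 0.741 and 0.765. Of these, Chordc1 in CD8 T-like cells passed the 1.5-fold call, as did Stip1 in all 3 classes. With median-of-ratios scaling the Stip1 ratio in CD8 T-like cells was 0.671, so that call ended there. In the largest cluster of each class alone it was 0.66674 in conventional CD4 T and 0.688 in CD8 T-like cells, both just short of the call.

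A looser rule, chosen after seeing the data, took genes at least 1.25-fold apart with at least 500 UMIs in each of the 3 classes. Of 4166 such genes, 6 (0.144%) were higher and 30 (0.72%) lower. The 6 higher were Cirbp, Rbm3, Socs3, Slc15a2, Pde1c (a calcium-dependent phosphodiesterase) and Sbno2 (a STAT3-induced corepressor). The 30 lower were the 13 mitochondrial messages, an unnamed model and 16 others. Among these were the chaperones above and the cytoskeletal genes Tuba1a, Tubb4b and Dynll1, with Tubb4b at 127.5 and 81.5 CPM in conventional CD4 T cells.

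Across the other libraries these genes followed 2 patterns, given here as values because all the comparisons share the saline library. Cirbp, Rbm3, Pde1c, Stip1, Chordc1, Dnaja1, Fkbp4 and Dynll1 had saline on one side and the glioma libraries on the other. Pde1c in CD8 T-like cells was at 39.5 CPM with saline and at 61.0, 70.5, 58.3 and 54.4 CPM in the glioma isotype, anti-CTLA-4, anti-CD20 isotype and anti-CD20 with anti-CTLA-4 libraries. The mitochondrial messages, Pde4b and, in larger part, Socs3 and Slc15a2 had the glioma isotype library apart from the rest. Pde4b, a cAMP phosphodiesterase, was at 221.8 CPM with saline, 165.8 CPM in the glioma isotype library and 200.4 to 214.4 CPM in the other 3 in conventional CD4 T cells.

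Socs3 had the largest shared ratio in B cells. In follicular B-like cells Socs3 (chromosome 11, 117966079 to 117970336) was at 20.9 CPM with saline and 66.8 CPM in the glioma isotype library, against 30.5 CPM with anti-CTLA-4, a ratio of 3.19 (2.81 to 3.64). Cells with a Socs3 UMI numbered 250 of 3864 and 587 of 3903. In conventional CD4 T cells it was at 87.9 and 175 CPM, a ratio of 2.00, with 124, 93.3 and 104 CPM in the other glioma libraries. In CD8 T-like cells it was at 89.8 and 144 CPM, a ratio of 1.60. Regulatory T-like cells had 102 and 254.8 CPM, a ratio of 2.49, and other B cells 17.03 and 55.6 CPM, a ratio of 3.26. In NK-like cells the ratio was 1.14, short of a call.

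The other STAT feedback genes lay mostly above 1 but were short of a call in the large classes. Socs3 was the only called member of 10 tested in follicular B-like cells and of 11 in each of conventional CD4 T and CD8 T-like cells. Ratios above 1 were found for 10 of 10, 10 of 11 and 10 of 11 members, with median log2 ratios of 0.15, 0.14 and 0.13 against -0.038, -0.038 and -0.046 over all genes. In regulatory T-like cells 2 of 12 were called higher, with a median of 0.37, against 0.964% of all genes called higher there. Over all genes 0.615% to 1.08% were called higher in the 3 large classes. Within the largest cluster of each class, an alternative chosen after seeing the data, the Socs3 ratios were 2.88, 1.47 and 1.32, so the T cell calls ended there.

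Slc15a2, a transporter that brings peptides and bacterial muropeptides into cells (chromosome 16, 36750161 to 36785158), was at 43.2 and 90.2 CPM in follicular B-like cells, a ratio of 2.09 (1.90 to 2.30). In conventional CD4 T cells it was at 23.8 and 40.4 CPM, and in CD8 T-like cells at 26.9 and 42.6 CPM, ratios of 1.70 and 1.59. The CD8 T-like ratio was 1.46 with doublets kept in, short of the call. With at least 1000 genes and at most 5% mitochondrial UMIs per cell it was 1.41, also short of it. Regulatory T-like cells had a ratio of 2.32. With anti-CTLA-4 the follicular B-like level was 60.1 CPM.

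Ighv1-22 was carried mostly by plasma cell-like cells. It had 2 UMIs with saline and 130 in the glioma isotype library in conventional CD4 T cells, and 2 and 153 in CD8 T-like cells, cells that do not make immunoglobulin. In the glioma isotype library 2 plasma cell-like cells held 5083 and 3490 UMIs of it, while in the saline library 1 such cell held 7871. Other secretory immunoglobulin RNA moved alike in conventional CD4 T cells, with Jchain at 24 and 86 UMIs and Igkc at 30 and 85. The part of free RNA in these values was not tested.

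**Figure D3:**
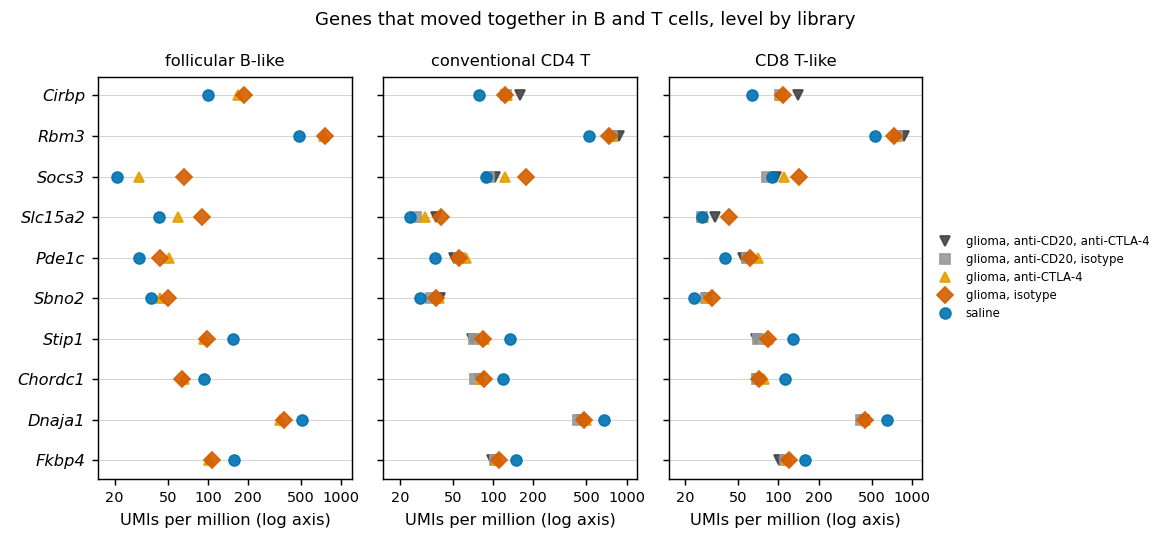
Levels (CPM, log axis) of 10 genes that moved alike in follicular B-like, conventional CD4 T and CD8 T-like cells, with 1 point for each library (anti-CD20 libraries are left out for B cells). For Cirbp and Stip1 the saline points lie apart from the glioma libraries, while for Socs3 the glioma isotype point is the highest, at 66.8 CPM against 20.9 with saline in follicular B-like cells.

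Within single classes, follicular B-like cells had 93 higher (0.967%) and 128 lower (1.33%) genes of 9618. Conventional CD4 T cells had 95 (1.08%) and 91 (1.04%) of 8758, and CD8 T-like cells 57 (0.615%) and 80 (0.863%) of 9271. Among the 8205 genes common to the 3 classes, 0.536% were higher and 0.731% lower in follicular B-like, 0.67% and 0.878% in conventional CD4 T, and 0.28% and 0.622% in CD8 T-like cells. Mixed T cells, 367 and 298 in number, had 0.982% higher and 8.36% lower genes, and a cluster of them with a high mitochondrial share and few UMIs held 87 and 26 cells. A gene was taken as private to B cells when it was past 1.5-fold there and within 1.2-fold in both T classes. Of those 8205 genes, 18 (0.219%) were higher and 20 (0.244%) lower in B cells alone. In T cells alone 0 were higher (0%) and 5 lower (0.0609%), and 1 gene (0.0122%) went in opposite directions.

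Inducible chaperones and immediate early factors led the genes higher in follicular B-like cells alone among the 3 large classes. Hspa1a (chromosome 17, 34969359 to 34972156) and Hspa1b (chromosome 17, 34956429 to 34959238), the stress-inducible Hsp70 pair, are near-identical copies, so how the authors' counting split UMIs between them is uncertain. Hspa1a in follicular B-like cells was at 667.3 CPM with saline, 1442 CPM in the glioma isotype library and 750.2 CPM with anti-CTLA-4, a ratio of 2.16 (2.11 to 2.21). Its ratios were 1.18 in conventional CD4 T cells and 0.997 in CD8 T-like cells. Hspa1b moved alike, with 762.5 and 1649 CPM in follicular B-like cells and ratios of 1.19 and 1.02 in the T classes. Their J-domain partner Dnajb1 was at 307.8 and 495.4 CPM, a ratio of 1.61, against 0.976 and 0.95 in the T classes. Cells with an Hspa1a UMI numbered 1053 and 1397 in the follicular B-like class.

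The chaperone list split within follicular B-like cells. Of 18 heat shock genes tested in follicular B-like cells 5 were higher and 1, Stip1, lower, with a median log2 ratio of -0.11, so that inducible Hsp70 genes and Hsp90 co-chaperones lay on opposite sides. Other B cells did not pass the call for the Hsp70 genes: 0 of 16 list members were higher and 1, Stip1, was lower (median -0.25), with ratios of 1.38 for Hspa1a, 1.14 for Hspa1b and 1.16 for Dnajb1. In conventional CD4 T cells 1 was higher and 1 lower (median -0.23), and in CD8 T-like cells 0 and 2 (median -0.28). Over all genes 0.615% to 1.08% were called higher and 0.863% to 1.33% lower in the 3 large classes. In other B cells these shares were 1.21% and 2.07%. In NK-like cells Hspa1a was at 307 and 968 CPM, found in 13 of 51 and 23 of 55 cells, a ratio of 3.15 (2.53 to 3.96). In innate lymphoid-like cells Hspa1b was at 395 and 877 CPM, a ratio of 2.22, and Hspa1a at 82.8 and 344 CPM, in 6 and 9 cells.

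**Figure D4:**
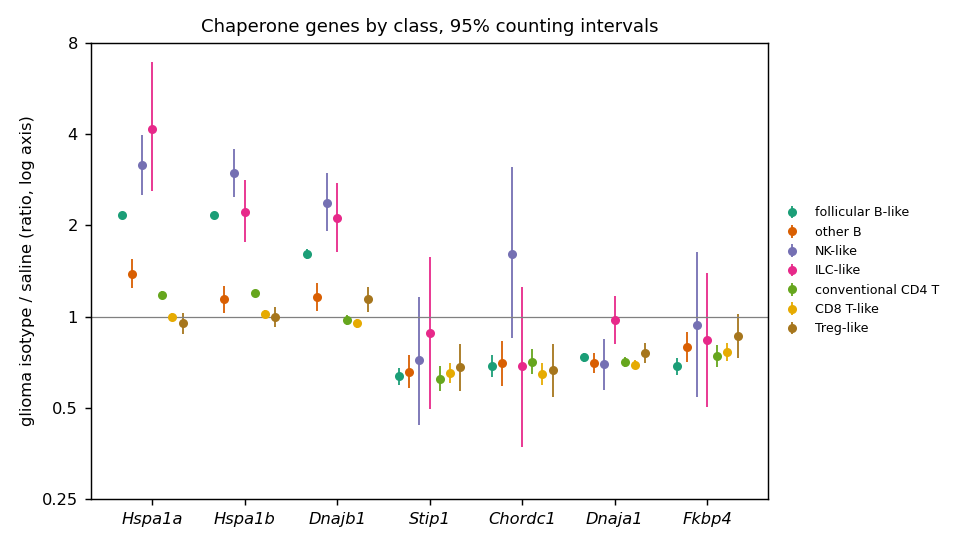
Ratio of the glioma isotype level to the saline level (log axis) of 7 chaperone genes in 7 cell classes, with 95% intervals that cover counting error only. Hspa1a and Hspa1b are raised in follicular B-like, NK-like and innate lymphoid-like cells, while Stip1 lies below 1 in B and T cells.

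The transcription factors Jun and Klf2 were higher in follicular B-like cells, like the inducible chaperones. Jun, a component of AP-1, was at 319 CPM with saline and 500.04 CPM in the glioma isotype library, a ratio of 1.57, and at 390.9 CPM with anti-CTLA-4. Klf2, which holds lymphocytes quiescent and keeps S1pr1 expressed for exit from the node, was at 923.3 and 1410 CPM, a ratio of 1.53 (1.49 to 1.56). The Jun ratio was 1.29 in other B cells, short of a call. Klf2 ratios were 1.07 in conventional CD4 T and 0.993 in CD8 T-like cells, but 1.84 in other B and 1.55 in NK-like cells. Rhob, an immediate early small GTPase, was at 99.6 and 161 CPM, a ratio of 1.62.

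Of 24 immediate early genes tested in follicular B-like cells 5 were higher (Atf3, Fosl2, Egr1, Jun and Klf2) and 2 lower (Fosb and Nr4a3), with a median log2 ratio of 0.070. Over all genes tested there, 0.967% were higher and 1.33% lower. In conventional CD4 T cells 0 of 22 and in CD8 T-like cells 1 of 23 were called, the latter Nr4a3, an orphan nuclear receptor gene that follows antigen receptor signalling, at 77.3 and 43.7 CPM. Over all genes 0.615% to 1.08% were called in each direction in these T classes. Nr4a3 was at 48.7 and 29.8 CPM in follicular B-like cells. In the largest follicular B cluster alone the ratios were 2.75 for Hspa1a, 1.27 for Dnajb1 and 1.21 for Jun, so the calls of Dnajb1 and Jun ended there.

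Innate sensing and interferon-induced genes were among those lower in B cells alone. Mavs, the mitochondrial adaptor of RNA sensing, was at 30.1 and 17.4 CPM in follicular B-like cells (14.7 CPM with anti-CTLA-4), a ratio of 0.578 (0.494 to 0.675), against 1.03 in conventional CD4 T and 0.854 in CD8 T-like cells. Other B cells had a Mavs ratio of 0.450. Ifit2, an interferon-induced inhibitor of translation, was at 7.99 and 3.34 CPM, in 60 and 39 cells, a ratio of 0.419, and the interferon-induced Slfn5 at 14.05 and 8.56 CPM. Follicular B-like cells of a cluster led by Ifit3, Ifit1 and Rsad2 numbered 40 with saline and 7 in the glioma isotype library. Without that cluster the Ifit2 ratio was 1.04, on the other side of 1. Oasl2, an oligoadenylate synthetase-like gene, was the 1 gene with opposite directions. It was at 8.52 and 5.42 CPM in follicular B-like cells and 4.74 and 7.65 CPM in conventional CD4 T cells. With doublets kept in, under the stricter cell filter or without interferon-led clusters it was not opposite.

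**Figure D5:**
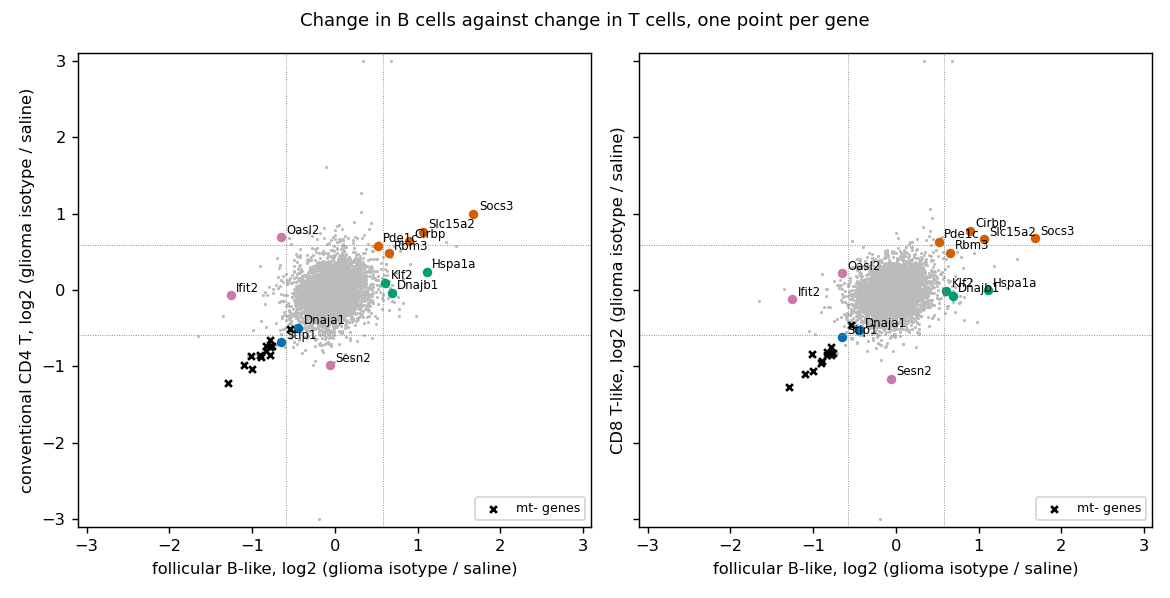
Log2 ratio of the glioma isotype level to the saline level for each gene tested, follicular B-like cells on the horizontal axis and conventional CD4 T cells (left) or CD8 T-like cells (right) on the vertical axis, with dotted lines at 1.5-fold, values beyond 3 drawn at 3 and mitochondrial messages as crosses. Mitochondrial messages lie low on both axes, Socs3 and Cirbp high on both, and Hspa1a and Klf2 are displaced along the B cell axis.

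T cells had a small private set, and at the settings above its 5 genes were lower. With at least 20 UMIs 14 genes were higher and 12 lower in T cells alone, and in the largest clusters 1 and 1. Sesn2, a stress-induced regulator of mTORC1, was at 10.8 and 5.47 CPM in conventional CD4 T cells, a ratio of 0.504 (0.346 to 0.726), and at 8.57 and 3.84 CPM in CD8 T-like cells, a ratio of 0.448. Its follicular B-like levels were 10.3 and 9.90 CPM. Cpeb2, a regulator of translation, had ratios of 0.526 and 0.589 in the T classes. Frmd6, a Hippo pathway protein, had 0.522 and 0.666, and Acat2, of cytosolic sterol metabolism, 0.606 and 0.531. In the largest CD8 T-like cluster alone the Sesn2 ratio was 1.197, so its direction there was the opposite.

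A kinase gene and a stress-response gene were higher in both T classes. Map3k8, a kinase of ERK signalling in activated T cells, was at 11.1 and 20.4 CPM in conventional CD4 T cells (ratio 1.84) and at 19.9 and 38.1 CPM in CD8 T-like cells (1.92, with 28.3 CPM under anti-CTLA-4). The stress-response gene Gadd45g had ratios of 1.74 and 1.71, and 2.30 in regulatory T-like cells. Bhlhe40, a repressor that shapes cytokine output of helper cells, was at 21.8 and 52.5 CPM in conventional CD4 T cells, in 70 and 92 cells, a ratio of 2.41. The clock list as a whole had 1 of 10 genes called in conventional CD4 T cells and 2 of 13 in follicular B-like cells. Over all genes 0.967% to 1.33% were called in each direction in these 2 classes. The checkpoint receptor gene Tigit, with a ratio of 1.92 in conventional CD4 T cells, was at 0.425 in their largest cluster alone, and Stx11 and Rgs16 (2.81 and 1.86) were at 0.816 and 0.278 there.

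Regulatory T-like cells, 388 and 394 in number, had 52 higher (0.964%) and 132 lower (2.45%) genes of 5393. The lower count was 75 with median-of-ratios scaling and 225 when averaged over cells. Camk1d, a calcium-dependent kinase, was at 866.6 CPM with saline, 1499 CPM in the glioma isotype library and 809.9 to 954.7 CPM in the other 3, a ratio of 1.73 (1.63 to 1.84). The calcium-binding S100a6 was at 123 and 268.8 CPM. Pdcd1, which encodes the checkpoint receptor PD-1, was at 103.2 and 47.6 CPM, a ratio of 0.461 (0.358 to 0.591), and at 71.3 CPM with anti-CTLA-4. Tbc1d4, a regulator of glucose transporter traffic, was at 279.8 and 181.3 CPM. The chemokine gene Cxcl10 had a ratio of 0.491.

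Other B cells, 566 and 583 in number and led by Fcrl5, Apoe and Plac8, had 83 higher (1.21%) and 142 lower (2.07%) genes of 6856. Cd274, the gene of the checkpoint ligand PD-L1, was at 106 and 193.6 CPM in them (151 CPM with anti-CTLA-4), a ratio of 1.83 (1.62 to 2.08), in 207 and 297 cells. Germinal centre B-like cells had 14.8% higher and 14.5% lower of 5147 genes, a background set by 23 saline cells. Srm, of polyamine synthesis, was at 19.9 and 116 CPM there, in 3 of 23 and 36 of 77 cells, while Zbtb20, a zinc finger repressor, was at 572.5 and 176.3 CPM. The class differed in makeup and depth: at finer resolution it held 19 and 43 cells of a cluster led by Rgs13 and Mef2b and 4 and 35 of a cycling cluster, and its median depth was 8756 and 17360 UMIs.

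NK-like cells had 124 higher (5.38%) and 147 lower (6.38%) genes of 2305 with at least 50 UMIs, the minimum used in small classes. Besides the Hsp70 genes, the stress factor Atf3 was at 26.6 and 122 CPM, in 5 of 51 and 21 of 55 cells, a ratio of 4.59 (2.21 to 10.7). Of 16 effector genes 0 were higher and 3 lower. The interferon gamma gene Ifng had a ratio of 1.26, the granzyme gene Gzma 0.985, the perforin gene Prf1 0.832 and the chemokine gene Ccl5 1.02, all short of a call. The 3 lower were Gzmb (0.514), which also defines the cluster, the chemokine gene Ccl4 (0.582) and Tbx21 (0.641), the factor T-bet. Averaged over cells in place of UMIs, Gzmb was at 0.732 and Ccl4 at 0.854, so these calls ended there. Of 7 Myc and ribosome biogenesis genes 3 were lower, among them Myc at 0.631 and Pa2g4 at 0.577. Proliferation-linked Tuba1b (0.372) and Stmn1 (0.516) were lower too, while the sub-cluster led by Gzmb, Gzma and Mki67 held 28 and 27 cells.

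Innate lymphoid-like cells had 102 higher (5.87%) and 116 lower (6.67%) genes of 1739. Hilpda, a lipid droplet protein induced by hypoxia, was at 188 and 740 CPM (569 CPM with anti-CTLA-4), in 15 of 43 and 29 of 48 cells, a ratio of 3.93 (2.88 to 5.46). Bambi, a decoy receptor for TGF-beta family ligands, was at 45.2 and 158 CPM. The activation marker Cd69 was at 267.2 and 103.2 CPM and the orphan nuclear receptor gene Nr4a2 at 452 and 148 CPM. Cd83 was at 225.8 and 82.6 CPM, but at a ratio of 1.02 when doublets were kept in. The sub-cluster led by Areg and Il13 held 19 and 24 cells and that led by Il22 24 and 24.

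Gamma-delta T-like cells had 64 higher (5.34%) and 114 lower (9.51%) genes of 1199. Cish, a STAT5 feedback inhibitor, was at 87.9 and 244 CPM, a ratio of 2.78 (1.60 to 4.95), in 13 of 31 and 17 of 25 cells. The AP-1 gene Junb was at 3629 and 5783 CPM, in 31 and 24 cells. In this class 3 of 6 STAT feedback genes were higher. Among the lower genes, Cd163l1, on the gamma-delta marker list, was at 1005 and 311 CPM, in 13 of 31 and 5 of 25 cells. Its ratio was 0.310, and those of Cxcr6 and Tbl1x were 0.514 and 0.291. Trdc had 42 and 11 UMIs, and the median depth was 7081 and 6060 UMIs. Whether the makeup of this small class differed between the libraries was not tested. The type 17 cytokine gene Il17a had 10 and 54 UMIs, of which 1 glioma isotype cell held 50.

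Migratory dendritic-like cells had 175 higher (10.2%) and 198 lower (11.6%) genes of 1710. Ccr7, the receptor that guides them to the node, was at 3322 CPM with saline, 1531 CPM in the glioma isotype library and 2811 CPM with anti-CTLA-4, a ratio of 0.461. Over the other settings tried the Ccr7 ratio ranged up to 0.596. Other markers of the class differed in direction, out of 254682 and 335686 UMIs in all. Ccl22 had 71 and 394 UMIs, in 11 of 28 and 24 of 33 cells, and 1 glioma isotype cell held 152. Fscn1 had 786 and 1483 UMIs and Cacnb3 162 and 255, while Apol7c had 317 and 284. The NF-kappa-B subunit gene Rel was at 883 and 325 CPM, a ratio of 0.368 (0.676 with doublets kept in, short of a call), and the NRF2-driven cystine transporter gene Slc7a11 at 185 and 44.7 CPM. Of 12 NF-kappa-B target genes 4 were lower, and of 17 immediate early genes 10 were lower and 2 higher. Junb was at 1728 and 885 CPM, but its ratio of 0.512 was 0.758 with doublets kept in, when the class held 79 and 61 cells.

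Presentation and glycolysis genes had higher summed levels in these migratory cells. The invariant chain gene Cd74 was at 4370 and 9732 CPM, although its median per cell was 22 and 18 UMIs. In the saline library 1 cell held 388 of its 1113 UMIs. The class II gene H2-Ab1 had a ratio of 2.66, from 133 saline UMIs, of which 1 cell held 71, and 466 glioma isotype UMIs. The median of H2-Ab1 per cell was 1 and 2 UMIs. Cd40, through which T cells license dendritic cells, was at 172.8 and 446.8 CPM, in 17 and 20 cells, a ratio of 2.59. With doublets kept in these ratios were 1.15 for Cd74, 1.03 for H2-Ab1 and 1.36 for Cd40. A Cd3e or Cd79a UMI was in 2 of 28 and 9 of 33 cells, and without those cells the ratios were 2.36 for Cd74, 2.99 for H2-Ab1 and 2.75 for Cd40. Of 7 glycolysis and hypoxia genes 4 were higher, among them Aldoa at 212 and 426 CPM and Gapdh at 326 and 617 CPM.

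The myeloid class had 346 higher (14.5%) and 210 lower (8.82%) genes of 2382, in 26 and 34 cells of several types. Cybb, of the phagocyte oxidase, was at 43.9 and 305 CPM and the monocyte-linked Plac8 at 254 and 1067 CPM. The dendritic protease inhibitor gene Cst3 was at 12918 and 4438 CPM. Ly6c2, of inflammatory monocytes and plasmacytoid cells, was found in 4 of 26 and 10 of 34 cells. Monocyte-gate cells of this class numbered 0 with saline and 5 in the glioma isotype library. The neutrophil and Dcn-led sub-clusters, formed over all cells that are neither B nor T, held 1 and 0 with saline. They held 5 and 7 in the glioma isotype library. How many of those cells lie in this class is not given, and the part of all these cells in the values above was not tested.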

How the data were processed

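Gene-by-barcode matrices of raw UMI counts, 32285 genes each, were used as deposited; per the file headers they were made with Cell Ranger 7.0.1, and the submitters' processing notes name mm10 and bcl2fastq 2.20.0. The 3 receptor libraries were not used. The members, lists and tests were chosen with earlier results of these data known. Members had at least 500 genes and at most 10% mitochondrial UMIs. Doublets were scored against simulated doublets (2 per cell), removing 0.8% per 1000 barcodes. The 5 libraries were clustered together (counts scaled to 10000 per cell, 2000 variable genes, 30 principal components, 15 neighbours, Leiden resolution 1) with scanpy 1.11.5 and leidenalg 0.10.2, and clusters were named from marker lists. Counts were summed per library and class, converted to CPM, and set against each other as ratios, each with a 95% interval from the exact conditional binomial; shares have Clopper-Pearson intervals, and upper limits at 0 are bounds of these. Python 3.11.15, numpy 2.4.6, scipy 1.17.1 and pandas 2.3.3 were used. The calculation was tested on simulated data. With 1 library a side, sharing and privacy are counts of ratios.

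Genes named as shared were the 10 higher and 10 lower past the fold ranked by the interval bound nearest 1, private genes the 6 each way, and genes of small classes the 4 each way. Leading genes within follicular B-like, conventional CD4 T, CD8 T-like and regulatory T-like cells were named by the same ranking. That choice was not among the planned ones. Left out were immunoglobulin and receptor segments, mitochondrial and ribosomal genes (given as families), unnamed models, and genes under 10% of their highest class level. Also left out were genes of which 1 cell held over 20% of UMIs in the library with the higher level. In the other library 1 cell could hold more. Examples are 34.9% of saline Cd74 in migratory dendritic-like cells and 45.8% of glioma isotype Cd83 in innate lymphoid-like cells. All list members could be named; Ighv1-22, Jchain, Igkc and the looser 1.25-fold set were chosen after their values were seen. Alternatives tried were other scaling, other UMI minimums, cell filters, doublet removal, clustering resolution and subsets of clusters. All 115 named genes looked up matched the RefSeq table of GRCm38.p6.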

Additional observations from a re-analysis of the deposited data

Results flagged for a closer look

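For the genes below the direction differed between cell classes of at least 50 cells in each library, being past 1.5-fold one way in one class and the other way in another. With 1 library a side none of these differences was tested, and the ratio of the 2 class ratios is given as a description.

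Ifit3, an interferon-induced gene, had a ratio of 0.185 in follicular B-like cells (16.6 and 3.08 CPM) and 1.59 in CD8 T-like cells, 8.61 times that of B cells. It was found in 79 and 35 follicular B-like cells, and it leads a cluster of them with 40 saline and 7 glioma isotype cells. The B cell ratio therefore describes few cells and not the class as a whole. Oasl2, also induced by interferon, was at 0.636 in follicular B-like and 1.61 in conventional CD4 T cells, 2.54 times apart. It was not opposite with doublets kept in, under the stricter cell filter or without interferon-led clusters. Hspb1, a small heat shock protein gene, was at 2.53 in follicular B-like, 1.55 in conventional CD4 T and 0.511 in regulatory T-like cells, so that the first 2 were 4.95 and 3.03 times the last. In the largest follicular B cluster alone, Hspb1 was at 0.650.

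Egr1, the immediate early factor, was at 1.71 in follicular B-like, 1.88 in other B (where it is among the genes that lead a cluster), 2.66 in NK-like and 0.649 in regulatory T-like cells. These were 2.64, 2.90 and 4.10 times the regulatory T-like value. Frmd6 was at 1.65 in regulatory T-like, 0.522 in conventional CD4 T and 0.666 in CD8 T-like cells, 3.16 and 2.48 times apart.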

How the results depend on the processing

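No paired analysis was possible because each group is 1 library. Of 1210 recomputed ratios of named genes, 1126 kept their call or lack of one, 63 lost the call and 13 gained it. Another 8 were called and reversed. A ratio without a call could cross 1 and still count among the 1126. Of class share ratios 65 of 69 stayed within the counting interval, and 92 of 120 gene counts per class, 25 of 40 private, 13 of 16 shared and 105 of 119 list medians held. In each class, depth limits low genes: with at least 20 UMIs the higher and lower genes became 432 and 413 in follicular B-like, 416 and 358 in conventional CD4 T, 334 and 376 in CD8 T-like, 358 and 715 in regulatory T-like, 406 and 591 in other B, 499 and 619 in NK-like, 398 and 484 in gamma-delta T-like, 469 and 520 in innate lymphoid-like, 696 and 566 in migratory dendritic-like and 971 and 638 in myeloid cells. Private genes became 64 higher and 69 lower in B, 14 and 12 in T, with 45 opposite and 9 shared higher.

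The following settings except scaling, mean over cells, doublets, resolution and the stricter cell filter were chosen after seeing the data. At 1.25-fold, 30 genes were shared lower. In the largest cluster of each class alone, calls fell to 38 higher in conventional CD4 T and 28 in CD8 T-like cells, with 2 shared higher and 1 higher and 1 lower in T alone. Reversed there were Hspb1 in follicular B-like cells (0.650), Rgs16 (0.278), Stx11 (0.816) and Tigit (0.425) in conventional CD4 T cells and Sesn2 in CD8 T-like cells (1.197). List medians (log2) there were -0.18 for Myc, -0.0075 for NF-kappa-B, -0.31 for cholesterol and 0.0041 for clock genes in conventional CD4 T cells. In CD8 T-like cells they were 0.014 for STAT feedback, -0.48 for heat shock, -0.20 for immediate early and -0.043 for interferon genes. In follicular B-like cells they were -0.22 for NF-kappa-B, 0.11 for cell cycle, -0.39 for heat shock, -0.036 for immediate early and 0.21 for interferon genes. With doublets kept in, Cd83 of innate lymphoid-like cells (1.02) and H2-Aa of migratory dendritic-like cells (0.971) reversed, the migratory dendritic-like share ratio turned from 1.203 to 0.790 and the plasmacytoid ratio went from 2.31 to 1.29, the share ratios were 0.636 for mixed T and 0.767 for myeloid cells, and calls were 61 lower in innate lymphoid-like, 349 higher in migratory dendritic-like and 119 higher in myeloid cells, with 1 higher in T alone and 0 opposite. With at least 1000 genes and at most 5% mitochondrial UMIs the mixed T share ratio was 0.684, with 1 higher in T alone and 0 opposite. At resolution 2 the other B share ratio was 0.811. Averaged over cells, 225 regulatory T-like genes were lower, 1 was higher in T alone and 2 opposite. With median-of-ratios scaling these were 75 lower and 1 higher in T alone. Without cells with Cd3e or Cd79a UMIs, 127 genes were lower in migratory dendritic-like cells. Without interferon-led clusters Ifit2 in follicular B-like cells was at 1.04 (reversed), the interferon median was -0.014, and 0 genes were opposite. Leaving out clusters with at least 80% of cells from 1 library gave no value, since there were none. The cause of these changes was not tested.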

Other observations

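Few genes of the other lists were called in the large classes. Of the glucocorticoid response list 0 of 14 genes tested in follicular B-like, 0 of 15 in conventional CD4 T and 0 of 15 in CD8 T-like cells were called, with median log2 ratios of 0.15, 0.019 and -0.033 against -0.038, -0.038 and -0.046 over all genes. In follicular B-like cells 12 of the 14 lay above 1. The interferon gamma GTPase and antigen-processing list had 0 of 19, 0 of 20 and 0 of 20 called. Over all genes 0.615% to 1.33% were called in each direction in these classes, so lists this short with no call are near the background. In the cholesterol synthesis list 1 of 19 genes was lower in conventional CD4 T cells, with a median of -0.21, and 1 of 16 in CD8 T-like cells, with a median of -0.19, against -0.041 in follicular B-like cells. In other B cells 4 of 14 cholesterol genes were lower, with a median of -0.25, against 2.07% of all genes called lower there.

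Clusters within the large classes changed share unequally. A cluster of follicular B-like cells with low UMI counts held 112 saline and 183 glioma isotype cells, while a cluster with a high mitochondrial share and few UMIs held 134 and 75. Among conventional CD4 T cells the cluster led by Dusp10 and Tubb2a held 427 and 310. Of the clock genes, Ciart was at 11.5 and 21.4 CPM in follicular B-like cells (19.1 CPM with anti-CTLA-4), a ratio of 1.86, and the repressor gene Bhlhe41 had a ratio of 1.56.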
